A study of Homo sapiens with 24 samples.

Results

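The 3 small RNA libraries of GFP control cells are described here, out of 24 libraries in the series and 12 small RNA libraries. They were chosen by their labels alone, as the small RNA count columns of the control condition, and no lamin library enters any value. The cells were HEK293, an established human cell line of embryonic kidney origin with genotype Wild Type, and the treatment was eGFP Overexpression, the control for the other conditions of the series, overexpression of LMNA, LMNB1 or LMNB2, which are not compared here. All 3 libraries carry batch number 1, and their RNA, enriched for small RNAs, was prepared with the mirVana PARIS kit. The labels do not say whether the replicates came from separate cultures, so the spread between them may be technical.

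Small RNAs of a human cell come from several machineries. RNA polymerase III makes tRNAs, 5S rRNA, Y RNAs, vault RNAs, RN7SL and RN7SK. Most box C/D and H/ACA small nucleolar RNAs (snoRNAs), which guide methylation and pseudouridylation of rRNA, are cut out of the introns of host genes. MicroRNAs (miRNAs) are cut from hairpins, and the bases 2 to 8 of a mature miRNA, its seed, pair with target messages.

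The deposited table gives a read count for each of 175946 annotated intervals. The totals were 184.6, 150.6 and 135.7 M counts (M, counts divided by 1000000) in libraries 1, 2 and 3. In the same order, 48.3%, 46.1% and 41.3% of the intervals had no count. The intervals overlap, so 1 read can be counted in several of them. Most counts lay on lncRNA intervals, which held 84.4% ± 3.80 of all counts (SD, n = 3). Those lncRNA intervals that overlap a short RNA interval held 83.2% ± 4.24, and the 152017 that do not held 1.18% ± 0.439. The 47 intervals named GAS5 alone held 34.4% ± 5.97 of all counts and the 36 named SNHG1 held 13.1% ± 2.27. Both genes are hosts of snoRNAs, and the longest GAS5 interval (chromosome 1, 173851260 to 173868977, minus strand) had 1938040, 1474491 and 1007999 counts, close to the sum over the snoRNAs inside it.

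For this reason composition is given on a reduced set of 6504 intervals, defined after the data were seen: short RNA intervals of at most 1000 bases and rRNA intervals of at most 6000 bases, with 1 interval kept for each stretch of a strand, the one with the highest mean count. It held 16.1, 14.0 and 17.1 M counts. CPM below means counts per 1000000 counts of this set unless another scale is named. The choice of scale matters, because a ratio of library 3 to library 1 on the total-count scale is 1.44 times that on the reduced set, and on the scale of trimmed means (TMM) it is 0.719 times that on the reduced set. Counts in each library are therefore printed throughout.

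In the reduced set the control cells were led by snoRNAs, rRNA and tRNA. The snoRNA share was 53.6%, 45.8% and 32.3% in libraries 1, 2 and 3 (43.9% ± 10.8, SD, n = 3). The rRNA share was 26.9%, 33.5% and 38.0% (32.8% ± 5.59), and the tRNA share was 9.43%, 9.69% and 16.0% (11.7% ± 3.70). Library 3 had the lowest snoRNA share and the highest rRNA and tRNA shares. For rRNA library 2 lay between the other 2, and for tRNA libraries 1 and 2 lay close together.

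The remaining classes were smaller. Small nuclear RNAs (snRNAs) made up 5.24% ± 0.188, Y RNAs 3.18% ± 0.685 and vault RNAs 1.55% ± 0.146. The miRNA share was 0.749%, 1.27% and 2.44% (1.49% ± 0.869), the widest relative range among the classes above 0.1%, with the share in library 3 3.26 times that in library 1. The snRNA share differed least, by 1.07 times between its highest and lowest library. Counting error was small beside these differences, since the widest 95% Wilson interval of a share in the reduced set had a half-width of 0.0261 percentage points. Wilson intervals cover counting error only, because reads without molecular identifiers are not independent molecules.

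**Figure D1:**
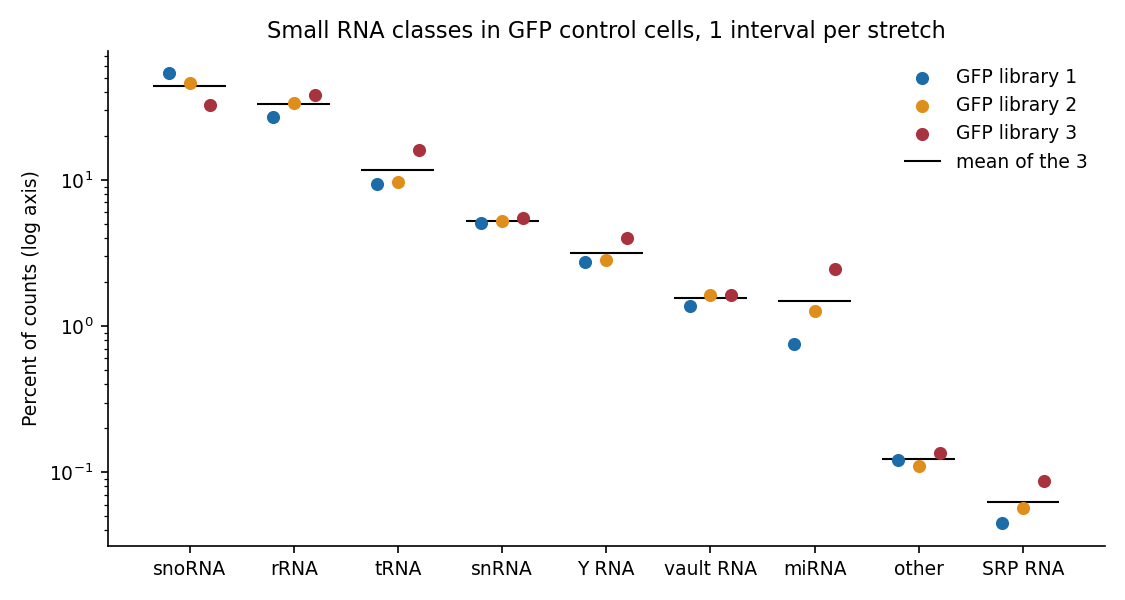
Percent of reduced-set counts by small RNA class (log axis) in each of the 3 GFP libraries, with the mean as a bar. The snoRNA points span 32.3% (library 3) to 53.6% (library 1), and the miRNA point of library 3 (2.44%) lies above those of the other 2 libraries.

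Without the reduction, over all intervals outside lncRNA, rRNA led with 49.1% ± 6.70, followed by snoRNA with 29.3% ± 8.50 and tRNA with 7.68% ± 2.16. The rank of rRNA and snoRNA thus turned on overlapping intervals, as the rRNA interval RNA45SN2 (chromosome 21, 8389010 to 8446597, plus strand) alone had 1543364, 1949152 and 2470115 counts and contains separately listed rRNAs. The class labelled SRP RNA held 5.81% ± 0.595 there, but 99.3% ± 0.271 of its counts lay on 1374 intervals longer than 1000 bases, the longest spanning 620789 bases. The named RN7SL genes, which encode the RNA of the signal recognition particle, had few counts. RN7SL1 had 1794, 1661 and 2494 counts.

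miRNAs are shown first by sequence. Mature sequences were taken from RefSeq (GRCh38.p14), and capitals mark the seed. Of 5146 miRNA intervals, 1653 were a RefSeq mature arm with 25 bases added on each side and 629 a hairpin with the same addition, so part of the other arm can fall inside and arms were not told apart. The sequences shown lie whole within intervals that led the class, that differed most or least between libraries, or that share a seed.
hsa-miR-423-3p: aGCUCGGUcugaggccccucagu
hsa-miR-10a-5p: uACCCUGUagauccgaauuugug
hsa-miR-615-3p: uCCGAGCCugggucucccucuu
hsa-miR-26a-5p: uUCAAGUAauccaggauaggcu
hsa-miR-7-5p: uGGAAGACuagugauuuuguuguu
hsa-miR-196a-5p: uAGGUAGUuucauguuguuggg
hsa-miR-196b-5p: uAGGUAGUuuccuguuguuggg
hsa-miR-92a-3p: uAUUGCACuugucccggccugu
hsa-miR-92b-3p: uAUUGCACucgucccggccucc
hsa-let-7a-5p: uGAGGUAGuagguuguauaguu
hsa-let-7e-5p: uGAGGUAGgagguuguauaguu

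The MIR423 interval (chromosome 17, 30117106 to 30117178, plus strand, also named for MIR3184) had the highest counts of the class, 24086, 32542 and 34747. MIR10A (chromosome 17, 48579881 to 48579951, minus strand), which lies in the HOXB cluster, had 3869, 8186 and 38617 counts. Its CPM was 9.42 times higher in library 3 than in library 1, and those of MIR423 1.36 times, so MIR10A ranked far below MIR423 in library 1 and above it in library 3. MIR615, in the HOXC cluster (chromosome 12, 54033925 to 54034070, plus strand), had 9245, 13162 and 7393 counts and was the other way round, with a ratio of 0.755.

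The 10 highest intervals held 59.7%, 54.8% and 43.1% of miRNA counts in libraries 1, 2 and 3. MIR320A had 10403, 11917 and 17388 counts. MIR148A had 2067, 4496 and 19031, and MIR21, known for high levels in many tumours, had 550, 1383 and 5265. The class was thus less concentrated in library 3 than in libraries 1 and 2.

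Of 139 reduced-set miRNA intervals with a mean count of at least 100, 125 were higher in library 3 than in library 1, and 88 by 4-fold or more. Of all intervals with a mean count of at least 100, 83% were higher in library 3 on this scale and 18.3% by 4-fold or more. Within the reduced set these shares were 76.2% and 16.5%, so the excess over the background was clearer at 4-fold than in direction. The median ratio was 6.32 for library 3 over library 1 and 1.89 for library 2 over library 1. On the TMM scale the median ratio of library 3 to library 1 was 4.54, with 77 intervals at 4-fold or more and 24 below 1. On that scale 56.5% of all intervals were higher in library 3 and 13.2% by 4-fold or more (56.8% and 10.1% within the reduced set). On the total-count scale the median was 9.10. The class median was above 1 on the 3 scales, and single intervals were not all so.

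**Figure D2:**
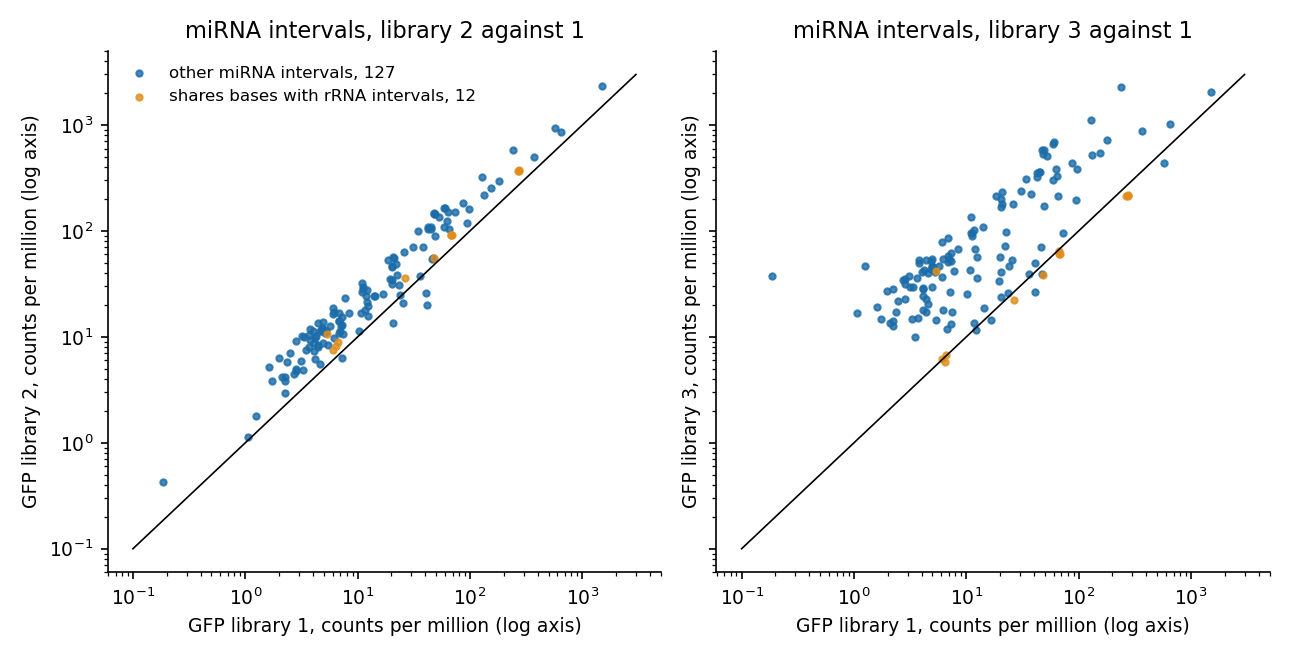
CPM of the reduced set in library 2 (left) and library 3 (right) against library 1, for 139 miRNA intervals with a mean count of at least 100 (both axes log, line of equality drawn). Most points lie above the line in the right panel (125 of 139), and intervals that share bases with rRNA intervals lie near it, except 1.

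Intervals that overlap rRNA mostly lie near the line of equality, but they are not the only ones there. Of the 139, 12 share bases with rRNA intervals on chromosome 21, among them MIR3687-1 (4390, 5093 and 3705 counts) and MIR3648-2 (769, 769 and 655 counts). Their median ratio was 0.891, and 11 of them were below 2. The exception was MIR10396B, with 86, 148 and 711 counts. The other 127 had a median ratio of 7.13 (quartiles 3.38 and 9.34), with 20 below 2. They include MIR10396A (ratio 12.6) and another MIR3648-2 interval (ratio 0.839), both on chromosome 21. The 127 are grouped as miRNA by deposited label. An interval named SNORD138 (ratio 1.52) and an interval on the mitochondrial chromosome (ratio 1.31) are also among them. The lowest ratios, 0.658 for MIR18A and 0.755 for MIR615, were among these 127. This split was made after the values were seen. The 12 intervals held 14.9%, 12.0% and 3.89% of miRNA counts, so the miRNA share of library 1 rested more on them than that of library 3.

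The intervals of 1 cluster had unequal ratios. In the MIR17HG cluster, a polycistron of miRNAs known as oncogenic in lymphomas, MIR92A1 had 2482, 3580 and 9241 counts, MIR19B1 had 1175, 2112 and 1622, and MIR18A had 654, 365 and 456. The ratios of library 3 to library 1 were 3.51, 1.30 and 0.658 on the reduced set. Those of MIR17, MIR20A and MIR19A were 2.08, 1.97 and 3.92. The MIR17, MIR18A and MIR20A intervals hold the 3p arm whole and only 11, 7 and 12 of 23 bases of the 5p arm. Those of MIR92A1 and MIR19B1 also hold the 3p arm whole. These ratios are therefore of intervals and may not stand for the 5p arms. miR-92a-3p is also encoded by MIR92A2 on chromosome X, whose interval had 2126, 3021 and 8932 counts. The counts of MIR92A1 can therefore not be assigned to this cluster alone. The 3 members of the related MIR106B cluster had ratios of 6.16 to 8.61.

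Shared seeds did not mean shared ratios either. miR-92a-3p and miR-92b-3p have the same seed and differ at 3 of 22 positions, counted from 1 at the 5′ end: U10C, G21C and U22C, with the base of miR-92a-3p first. The MIR92B interval had 577, 522 and 670 counts, a ratio of 1.10 beside 3.51 for MIR92A1. In the let-7 family, a regulator of growth and differentiation genes, the direction was shared, as in most miRNA intervals, but the ratios were unequal. All 11 let-7 genes listed were higher in library 3 than in library 1, with ratios from 3.28 for MIRLET7E (354, 684 and 1231 counts) to 12.0 for MIRLET7F1 (71, 189 and 900 counts), and on the TMM scale these ratios are lower by the factor given above, all still above 1.

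Apart from MIR615, the HOX cluster miRNAs listed had ratios from 5.61 (MIR196A1) to 9.80 (MIR10B). The median over the 127 miRNA intervals that share no bases with rRNA was 7.13. MIR10B had 847, 1907 and 8793 counts, and MIR196B 685, 1452 and 5989. MIR196A1 had 194, 387 and 1154. The 3 intervals of MIR7 had nearly equal counts within a library, at 767, 786 and 776 in library 1, and 9999, 9813 and 9162 in library 3. MIR26A1 and MIR26A2 likewise had 945 and 970 in library 1. Such genes encode the same mature miRNA, so their counts are not independent measurements. Their intervals do not hold it to the same extent. MIR26A2 holds miR-26a-5p whole and MIR26A1 only 8 of its 22 bases. The MIR7-3 and MIR7-1 intervals hold miR-7-5p whole, and that of MIR7-2 holds miR-7-2-3p whole.

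The largest ratios were seen at low counts. An interval named as a mir-720 precursor on chromosome 1 had 3, 6 and 636 counts, and MIR1246 had 20, 25 and 794. With 3 counts in library 1 the first ratio carries a wide counting error.

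Markers of other tissues checked the label. The liver miRNA MIR122 had 2, 8 and 4 counts. All 5 muscle, 5 blood, 8 pluripotent and 5 mesenchymal miRNAs listed had at most 3 counts in any library, with MIR1-1, MIR133A1, MIR451A and MIR302A at 0 in all 3. Not every list was empty. Neural MIR128-1 had 1035, 2108 and 5664 counts and MIR9-1 had 28, 53 and 254, with MIR9-2 and MIR9-3 at like counts, whereas MIR124-1 and MIR124-3 were at 0 and MIR124-2 had 1 count in library 3. Of the 5 epithelial miRNAs, MIR200C had 29, 54 and 136 counts and MIR200B 3, 4 and 17, and MIR200A, MIR141 and MIR429 had at most 4 in any library. Endothelial MIR126 had 82, 153 and 780. Of the 4 kidney tubule miRNAs, MIR192 had 79, 193 and 921, MIR204 13, 41 and 91, MIR194-1 12, 11 and 41, and MIR194-2 7, 8 and 46. In CPM the neural, endothelial and kidney tubule lists summed to 68.6, 5.09 and 6.89 in library 1 and to 371, 45.7 and 64.4 in library 3, so these lists differed between libraries as other miRNAs did. Their part in the miRNA differences was not tested.

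Box C/D snoRNAs supplied nearly all of the snoRNA share, at 43.5% of the reduced set, with 0.282% for H/ACA snoRNAs and 0.0840% for the SCARNA genes, whose RNAs reside in Cajal bodies. SNORD44 (chromosome 1, 173865943 to 173866053, minus strand, in an intron of GAS5) had the highest counts of any reduced-set snoRNA, 1348790, 1169426 and 710357, or 6.97% ± 2.43 of the set. SNORD58A (chromosome 18, 49491258 to 49491372, minus strand, within RPL17) had 910250, 532590 and 460964. SNORD29 (chromosome 11, 62853879 to 62853993, minus strand, within SNHG1) had 712490, 602701 and 330410. All 3 were lowest in library 3, with ratios to library 1 of 0.497, 0.478 and 0.438.

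The next 4 C/D snoRNAs by mean level were SNORD63, SNORD101, SNORD81 and SNORD59B. SNORD63, within HSPA9, a mitochondrial chaperone, had 521344, 508267 and 347950 counts. SNORD101, within the ribosomal protein gene RPS12, had 308059, 364353 and 321367, a ratio of 0.985. SNORD81, a further snoRNA of GAS5, had 488662, 236409 and 202728. SNORD59B, within the ATP synthase gene ATP5F1B, had 327928, 243173 and 232698. Of these 4, SNORD81 had the lowest ratio of library 3 to library 1, 0.392.

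By host, the snoRNAs of GAS5 held 12.0%, 10.6% and 5.91% of the reduced set, those of RPL17 7.76%, 5.42% and 3.90%, and those of SNHG1 6.35%, 5.64% and 3.15%. Level differed strongly between snoRNAs of 1 host. In GAS5, beside SNORD44 and SNORD81, SNORD79 had 5208, 3095 and 2402 counts, and SNORD77 had 73, 79 and 193. The direction also differed within a host. SNORD74, also in GAS5, had 20543, 23038 and 49106 counts, a ratio of 2.26, beside 0.392 for SNORD81. In SNHG29, SNORD49A had 47384, 59139 and 144703 counts (ratio 2.88) and SNORD65 had 24196, 11420 and 11162 (ratio 0.435). Ratios of SNORD74 and SNORD49A stayed above 1 on the TMM scale, at 1.62 and 2.07.

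Of the 223 snoRNAs with a mean count of at least 100, 113 were lower in library 3 than in library 1. Of all intervals with a mean count of at least 100, 17% were lower in library 3 on this scale, and of those in the reduced set 23.8%. On TMM both shares were higher, at 43.5% and 43.2%. The snoRNA count differed by level. Among C/D snoRNAs at 1000 CPM or more, 41 of 45 were lower in library 3 (median ratio 0.538). At 100 to under 1000 CPM, 41 of 69 C/D snoRNAs were lower (median ratio 0.893). Among those under 100 CPM, 17 of 43 were lower (median ratio 1.34). H/ACA snoRNAs, nearly all at low level, had a median ratio of 1.36 under 100 CPM, with 10 of 60 lower. Of the 6 at 100 to under 1000 CPM, 4 were lower. On the TMM scale the corresponding numbers, in the order given, were 42 of 45, 53 of 69, 23 of 43, 31 of 60 and 5 of 6. The levels were chosen after the data were seen. The 4 C/D snoRNAs of high level that were not lower on the reduced set were SNORD49A, SNORD74, SNORD100 and SNORD118. SNORD118 (U8), which acts in rRNA processing and has its own promoter, had 46274, 59408 and 62970 counts. Its ratio was 1.28 on the reduced set and 0.924 on TMM, so it was lower in library 3 on that scale.

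**Figure D3:**
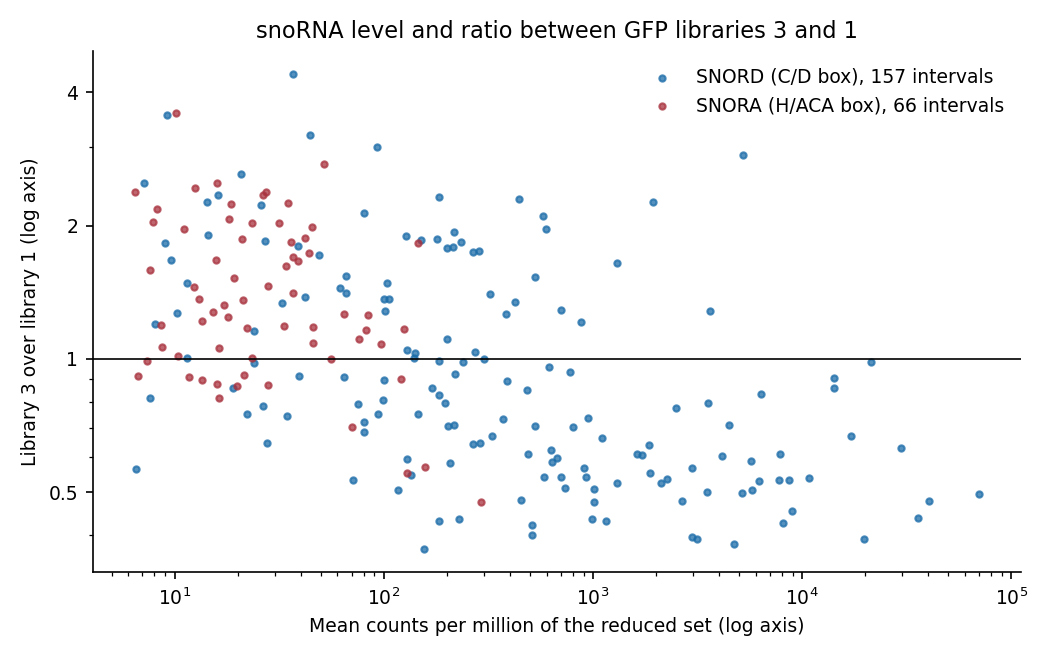
Ratio of library 3 to library 1 against mean CPM of the reduced set (both axes log) for 157 SNORD and 66 SNORA intervals with a mean count of at least 100. Points at or above 1000 CPM lie mostly below the line at 1 (41 of 45), and those at low level scatter around and above it.

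The H/ACA snoRNAs of highest level were SNORA2C with 7590, 2444 and 3822 counts and SNORA18 with 4020, 1113 and 2433. Both were lowest in library 2. SCARNA9 had 2187, 3115 and 4362 counts and SCARNA2 2296, 2686 and 2805. U3, the snoRNA needed for the first cleavages of pre-rRNA, was read on SNORD3A with 5947, 5630 and 8450 counts, far below the leading C/D snoRNAs.

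28S was the largest of the rRNA groups counted by name, though less than all other rRNA together. The 3 28S intervals together made up 13.4% ± 3.56 of the reduced set, with 9.40%, 14.7% and 16.2% in libraries 1, 2 and 3. 5S rRNA, transcribed by RNA polymerase III, made up 5.51% ± 1.24, 18S 2.89% ± 0.476 and 5.8S 2.88% ± 0.188. Mitochondrial rRNA made up 1.53% ± 0.250. The 28S share was lowest in library 1, and that of 5S in library 2 (5.66%, 4.20% and 6.66%). The 3 28S genes of chromosome 21 had similar counts, for example 510696, 693162 and 927126 for RNA28SN1, and near-identical copies of other genes did too. The 16 copies of RNA5S8 ranged from 55204 to 56040 in library 1, with a variance 0.848 times their mean, about that of counting noise. How reads shared by copies were assigned is not given in the sources used here, so copies are not independent.

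Nuclear tRNA made up 9.94% ± 3.35 of the reduced set and mitochondrial tRNA 1.61% ± 0.375. Of 499 nuclear tRNA intervals, 21, 18 and 10 were without a count in libraries 1, 2 and 3. The counts were concentrated: 27, 25 and 31 genes held 50% of them. Glycine, glutamate and aspartate tRNAs led, at 19.9% ± 0.626, 19.2% ± 1.70 and 15.5% ± 6.00 of nuclear tRNA counts. Aspartate was the least steady of them, at 14.0%, 22.1% and 10.3%, and glycine the steadiest, at 19.5%, 19.5% and 20.6%.

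**Figure D4:**
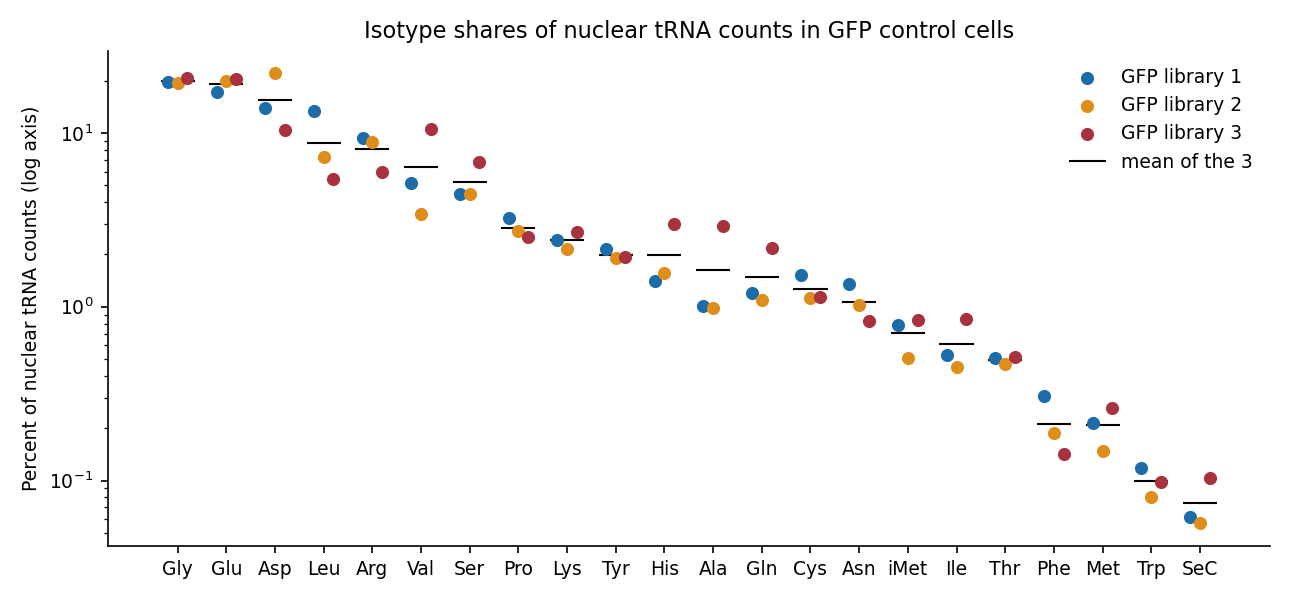
Percent of nuclear tRNA counts by isotype (log axis) in the 3 GFP libraries, isotypes above 0.05%, with the mean as a bar. Leucine is highest in library 1 (13.4%) and lowest in library 3 (5.40%), and valine, histidine and alanine are highest in library 3.

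Single genes held much of the leucine counts in library 1 and of the serine counts in library 3. tRNA-Leu-TAG-1-1 (chromosome 17, 8120289 to 8120420, minus strand) had 131189, 48425 and 64551 counts, and the leucine share was 13.4%, 7.31% and 5.40%. tRNA-Ser-TGA-1-1 (chromosome 10, 67764478 to 67764609) had 8259, 13430 and 87398 counts, and the serine share was 4.47%, 4.44% and 6.81%. Valine tRNAs held 5.14%, 3.41% and 10.5%, with both the CAC and AAC anticodons highest in library 3. Alanine held 1.01%, 0.979% and 2.90%.

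Among tRNA genes with a mean count of at least 1000, tRNA-Ile-TAT-1-1 (chromosome 19, 39412143 to 39412285, minus strand) was far higher in library 3, with 73, 51 and 9835 counts. Several alanine tRNA genes were similar, with 110, 110 and 3858 counts for tRNA-Ala-CGC-1-1 and 235, 289 and 3635 for tRNA-Ala-TGC-1-1. Libraries 1 and 2 nearly coincided for these genes, and library 3 was the one apart. Whether a count stands for a whole tRNA or a fragment is not shown by the table.

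Mitochondrial tRNAs, encoded in the mitochondrial genome and needed for translation of the respiratory chain subunits it encodes, had their own pattern. MT-TE, for glutamate, had 48813, 33157 and 133765 counts and MT-TV, for valine, had 49283, 26382 and 28039. MT-TE made up 19.7%, 18.2% and 38.4% of mitochondrial tRNA counts and MT-TV 19.9%, 14.5% and 8.05%. MT-TL1, a leucine tRNA mutated in a mitochondrial encephalomyopathy, had 18226, 14296 and 12744 counts. MT-TH had 34670, 30200 and 47046 counts, and its share of mitochondrial tRNA was steadier, at 14.0%, 16.6% and 13.5%.

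Among other products of RNA polymerase III, the vault RNA VTRNA1-2 (chromosome 5, 140718901 to 140719038) had 118555, 108838 and 169855 counts and VTRNA2-1 (chromosome 5, 136080472 to 136080622), also named nc886, 94802, 112971 and 99755. VTRNA1-1 had 8153, 5690 and 7876, and VTRNA1-3 had 360, 233 and 517. The order of the 4 was the same in libraries 1 and 3, and VTRNA1-2 and VTRNA2-1 changed places in library 2.

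The Y RNA RNY4, a partner of the Ro60 protein, had 112057, 104295 and 164970 counts, RNY5 72935, 54591 and 70331, RNY1 33734, 33826 and 75260, and RNY3 26486, 19145 and 19661. On the reduced set the ratio of library 3 to library 1 was 2.11 for RNY1 and 0.701 for RNY3. RN7SK, which holds the elongation factor P-TEFb inactive, had 12907, 21772 and 14701 counts. RMRP, the RNA of RNase MRP, had 3277, 3779 and 8998, and RPPH1, the RNA of RNase P, 3243, 3243 and 3891. The neuronal RNA BCYRN1 had 14, 28 and 10 counts. The SNAR genes, small RNAs of primates, made up 0.420%, 0.197% and 0.256% of the reduced set.

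U5 and U2 led the spliceosomal snRNAs. RNU5E-1 had 100724, 59809 and 90438 counts and RNU5B-1 71384, 41084 and 68006. The 12 copies of RNU2-1 together made up 1.65% ± 0.124 of the reduced set, U1 copies 0.615% ± 0.110 and U6 copies 0.0237% ± 0.00489. RNU12, of the minor spliceosome, had 24703, 29246 and 41284 counts, RNU11 18873, 9648 and 19723, and RNU6ATAC 15, 8 and 20. The U7 gene RNU7-1, whose RNA directs histone message processing, differed most of these genes, with 1147, 2550 and 8314 counts and a ratio of 6.84.

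The spread between the 3 libraries was measured over 27167 intervals with a mean count of at least 10. Of these, 23964 were lncRNA intervals, and since intervals overlap, 1 read can enter several of them. On the total-count scale fixed for this comparison, 15463 of the 27167 (56.9%) differed by 2-fold or more between the highest and the lowest library. The count was 4809 without replicate 3 and 8032 without replicate 1. Between libraries 1 and 3 the share was 50.3%. The share past 2-fold between the highest and the lowest library was 29.4% on the TMM scale and 36.8% on the reduced set. Of miRNA intervals, 78.1% were past 2-fold on the TMM scale, against 57.8% of tRNA, 44.8% of snoRNA and 27.1% of lncRNA intervals, read against 29.4% over all.

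On the total-count scale the median level of all intervals was 1.00 higher in library 3 than in library 1 (log2), and on TMM it was -0.01. Classes are therefore given on TMM, against a median near 0. The miRNA median was 1.84 higher in library 3 than in library 1, rRNA 0.70 and tRNA 0.42, and the snoRNA median difference was -0.25, which is positive (0.75) on the total-count scale. Over all intervals on TMM, libraries 1 and 2 were closer to each other than to library 3. The shares past 2-fold were 10.6% for 1 against 2, 19.8% for 1 against 3 and 18.2% for 2 against 3. For snoRNA they were 24.4%, 30.0% and 16.7% in that order, so there libraries 2 and 3 were closest. On the reduced-set scale the shares over all intervals were 17.3%, 26.9% and 18.3%. The biological coefficient of variation, a spread beyond counting noise estimated by edgeR, was 0.371 over all intervals. It was 0.219 without replicate 3, 0.389 without replicate 1 and 0.412 without replicate 2. By class it was 0.769 for miRNA, 0.585 for rRNA, 0.565 for tRNA and 0.398 for snoRNA.

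ATAC-seq libraries of the same condition, from cells collected separately, gave chromatin accessibility at the genes that make these RNAs. They carry batch number 2, and their replicate numbers mark other collections of cells than those of the small RNA libraries. Values are CPM on the ATAC totals per kilobase (CPM per kb) of a window 125 bases wider than the interval on each side. The median over all 175946 windows was 0.0896 ± 0.00571 (SD, n = 3).

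The windows of nuclear tRNA genes, in 3 groups of 164, 163 and 164 genes by mean small RNA level, had median values of 0.507 ± 0.0635 in the lowest group, 6.77 ± 0.723 in the middle group and 6.57 ± 0.994 in the highest group. The quartiles over genes were 0.146 and 2.33 in the lowest group and 3.75 and 11.1 in the middle group. The lowest group was below the other 2, whose medians differed by less than their SD. Across 491 tRNA genes Spearman's rho of accessibility with small RNA level was 0.538. It is a description across genes, which share libraries and, in families, reads. tRNA-Ile-TAT-1-1, uneven between the small RNA libraries, had 23.3 CPM per kb.

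**Figure D5:**
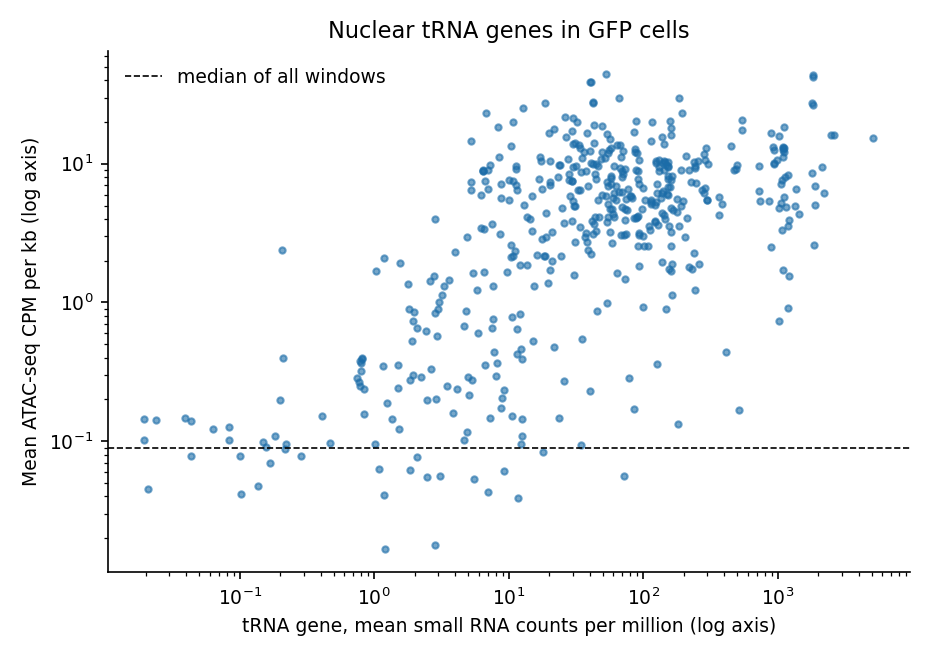
Mean ATAC-seq CPM per kb against mean small RNA CPM (both axes log) for 490 nuclear tRNA genes with an ATAC count, with the median of all windows dashed. Of the lowest group by RNA level, 21 of 164 genes were below the dashed line (counting 1 gene at 0, not drawn), against 2 of 163 in the middle group and 0 of 164 in the highest.

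Among other genes, the 4 vault RNA windows had 12.4 ± 1.64 CPM per kb in the median, RN7SK 13.9 ± 2.76, RMRP 13.5 ± 2.01 and RPPH1 16.6 ± 3.15. RNA level and accessibility did not run in parallel within the vault RNAs: VTRNA1-3 (23.1 CPM) had 12.6 ± 1.70 CPM per kb and VTRNA1-2 (8366 CPM) 14.1 ± 2.59. The 4 RNY windows had 1.96 ± 0.372, and 64 Y RNA copies without a gene symbol, with a mean count of at least 100, had a median of 0.0705 ± 0.00659. The 243 SNORD windows, most of them inside introns, had a median of 0.145 ± 0.00809, and SNORD118, with its own promoter, had 11.5 ± 1.29. RNU6ATAC, at 0.892 CPM, had 7.54 ± 1.58 CPM per kb.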

How the data were processed

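The members, lists and groupings were chosen with earlier results of these data known. The authors deposited raw counts per interval and library for both assays. Per the submitters' processing notes the build was GRCh38, and the aligner, counter, use of strand and treatment of multiply mapped reads are not given in the sources used here. Deposited intervals carry 25 added bases on each side, and positions are printed counted from 1. The 75 deposited biotype labels were grouped to 10 classes after the data were seen.

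Named intervals were the 5 highest by CPM in each class (1 per family), the 3 highest by CPM per kb, listed families, and the 5 highest in each library against the other 2 among intervals outside lncRNA with a mean count of at least 1000. Other intervals were chosen after their values were seen, including members of a host or cluster. The reduced set is described above. Scales were total counts, TMM (edgeR 4.0.16) and DESeq2 1.42.0 size factors. Base content and length of mature miRNAs and the promoters of snoRNA hosts were also looked at and are not reported. No test was run, since there is 1 group. The dispersion estimate was tested on simulated data. ATAC CPM used the total over interval windows. RefSeq (GRCh38.p14) gave miRNA sequences and the host gene of a snoRNA, the shortest RefSeq gene that holds it.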

Additional observations from a re-analysis of the deposited data

How the results depend on the processing

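No paired analysis was possible because the libraries form 1 group with no contrast. Shares are means over the 3 libraries. The lncRNA share of all counts was 58.3% with 1 value per family, 45.0% with 1 interval per overlapping group and 29.6% as counts per kb. Outside lncRNA and in the same order of alternatives (then the reduced set), snoRNA held 45.7%, 40.2%, 58.6% and 43.9%, rRNA 29.3%, 30.6%, 11.8% and 32.8%, SRP RNA 8.23%, 7.72%, 0.0376% and 0.0630%, snRNA 3.07%, 4.84%, 4.32% and 5.24%, Y RNA 3.34%, 2.92%, 3.58% and 3.18%, and vault RNA 1.62%, 1.42%, 1.75% and 1.55%. tRNA held 10.7% with 1 interval per group, 15.6% per kb and 11.7% on the reduced set, and miRNA 4.20% per kb. With rRNA intervals limited to 1000 bases, the reduced set held 55.1% snoRNA and 15.0% rRNA. With the highest copy of each tRNA family only, glycine held 14.7%, glutamate 12.8%, aspartate 5.88%, leucine 16.3% and arginine 15.0% of nuclear tRNA counts.

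The count of intervals past 2-fold was 7983 on TMM, 8002 on DESeq2 size factors, 9986 on the reduced set, 96374 with no filter beyond 1 count, 3117 at a mean count of at least 100 and 2170 without lncRNA, and 4809 to 14204 with a replicate left out. Some of these test fewer or more intervals by construction. The coefficient of variation was 0.219 to 0.412 with a replicate left out. The level of library 3 minus library 1 (log2) changed sign on TMM for lncRNA (-0.029), snoRNA (-0.25) and all intervals (-0.0072). The TMM scale was set on these same intervals, most of them lncRNA. The lncRNA and all-interval values therefore lie near 0 by construction. On TMM the level difference was 0.70 for rRNA, 0.42 for tRNA, 0.017 for SRP RNA, 0.16 for snRNA, 0.36 for Y RNA and 0.033 for vault RNA. Scaled to the total outside lncRNA it was 0.30 for lncRNA, 0.084 for snoRNA, 0.35 for SRP RNA, 0.49 for snRNA, 0.37 for vault RNA and 0.32 for all intervals, and on the reduced set 0.45 for lncRNA, 0.23 for snoRNA, 0.49 for SRP RNA and 0.47 for all.

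Off the mitochondrial chromosome, accessibility was 0.917, 12.2 and 11.9 CPM per kb in the tRNA groups from low to high level, 3.53 for RNY, 22.4 for vault RNAs, 17.0 for RN7SL, 25.1 for RN7SK, 24.4 for RMRP and 30.0 for RPPH1, by the construction of a smaller total. Spearman's rho was 0.536 to 0.546 with a replicate left out. Of 277 alternative values, 201 kept within the limits set (1 SD over libraries, or 1.5 times for counts). The cause of the other changes was not tested. With 3 libraries, differences between libraries are described only. Counts under 3 were printed for markers but not read as levels.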
